A study of Homo sapiens with 3 samples.

Results

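The genes described here are 10 that carry glucose carbon from the plasma membrane to exported lactate: SLC2A1, HK2, PFKP, ALDOA, GAPDH, PGK1, ENO1, PKM, LDHA and SLC16A3. They were chosen by name, and each matched exactly 1 of the 50868 gene rows. NCI-H23 is a human lung adenocarcinoma cell line. It was transfected with siRNA against USP16 (2 libraries, numbered 1 and 2 here as in their titles) or with control siRNA (1 library), and mRNA was sequenced. USP16 is an enzyme that takes ubiquitin off histone H2A. Whether the knockdown libraries come from separate siRNAs or separate cultures is not stated in the labels. The p-values therefore rest on the spread between these 2 samples alone, shared in part over all genes tested, and that spread may be technical. The header of the second knockdown column carries the number 6 where the title has 2.

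Glycolysis splits glucose into pyruvate in the cytosol. An investment phase spends ATP to make and cleave a doubly phosphorylated sugar, and a payoff phase regains ATP and reduces NAD+. Many tumour cells turn much of that pyruvate into lactate, which restores NAD+, and export it with a proton. HIF-1 and MYC are classic activators of these genes.

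The libraries held 13956382 and 15071179 counts after USP16 knockdown and 14007161 in the control. USP16 itself was at 7.68 and 15.7 CPM (counts per 1000000 after TMM scaling, which uses a trimmed mean of log ratios between libraries) in the knockdown libraries, against 47.4 CPM in the control, with an adjusted p of 0.562 over all genes (edgeR quasi-likelihood test). The labelled cell type fitted its markers in part. The 5 epithelial markers summed to 237 and 361 CPM in the knockdown libraries and 402 CPM in the control, nearly all of it from the keratins KRT8 and KRT18, with 1118 to 3364 counts. Among the others, KRT19 had 55 and 52 counts after knockdown and 62 in the control, CDH1 had 39 and 93 against 142, and EPCAM, above the control in both knockdown libraries, had 161 and 232 against 38. Of 3 lung lineage markers, SFTPC was at 0 in all libraries, NKX2-1 had 4 to 10 counts and NAPSA 9 to 20. The 3 erythroid markers were at 0 in every library, and of 5 leukocyte markers CD3E was at 0 and PTPRC and LYZ had at most 1 count. The remaining leukocyte markers are CD14, with 114 and 59 counts after knockdown and 91 in the control, and CD68, with 144 and 130 against 78, and the 5 summed to 18.2 and 12.2 CPM after knockdown and 12.8 CPM in the control. Summed mesenchymal markers, mostly VIM, were at 1377 and 532 CPM in the knockdown libraries and at 1523 CPM in the control. The 5 fibroblast markers summed to 67.4 and 59.1 CPM after knockdown and 73.9 CPM in the control. Most of this was COL1A1, with 881 and 700 counts against 918, while LUM had 26 and 140 against 20. The 3 endothelial markers summed to 0.42 and 0.77 CPM after knockdown and 0.45 CPM in the control. The part of these marker differences in the results was not tested.

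Of the 10 genes, 7 were below the control in both knockdown libraries, 1 (HK2) was above it in both, and 2 (ALDOA and PGK1) lay on both sides of it. The 7 became 6 with raw library totals, where PFKP lay on both sides, and 5 when counts were scaled by 13 reference genes, where PFKP and LDHA did. The lowest mean log2 changes were those of SLC16A3, the lactate exporter (-1.41 ± 0.12), PKM, the last enzyme of glycolysis (-0.97 ± 0.26), and SLC2A1, a glucose importer (-0.90 ± 0.89; SD, n = 2 each). None of the 10 passed an adjusted p of 0.05 (edgeR, adjusted p between 0.823 and 0.999), and 0.0174% of the 17287 genes tested did. With no filter on low counts it was again 0 of 10, against 0.254% of all genes. PKM and SLC16A3 had an unadjusted p under 0.05 with edgeR, 2 of 10, where 4.88% of all genes tested did. DESeq2 also called 0 of the 10 (0.0752% of all genes) and had the same 2 genes under an unadjusted 0.05 (2.97% of all genes).

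For direction, the background was 33.5% of all genes lower in both knockdown libraries and 33.4% higher in both. Among the 7445 genes with a mean count at least that of the lowest member, 38.1% were lower in both and 28.6% higher in both. The control lay outside the range of the knockdown libraries for 8 of the 10 genes, near the 66.8% of all genes. For 5 of them (HK2, GAPDH, ENO1, PKM and SLC16A3) the control was also farther from the nearer knockdown library than the knockdown libraries were from each other, which held for 32.5% of all genes. The median log2 change over the 10 was -0.29 in knockdown library 1 and -0.37 in library 2, against 0.00 and -0.00 over all genes tested. Among the 7445 genes with as many counts the medians were -0.04 and -0.06. Both knockdown libraries are set against the same control library, so an unusual value there moves both changes alike.

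**Figure D1:**
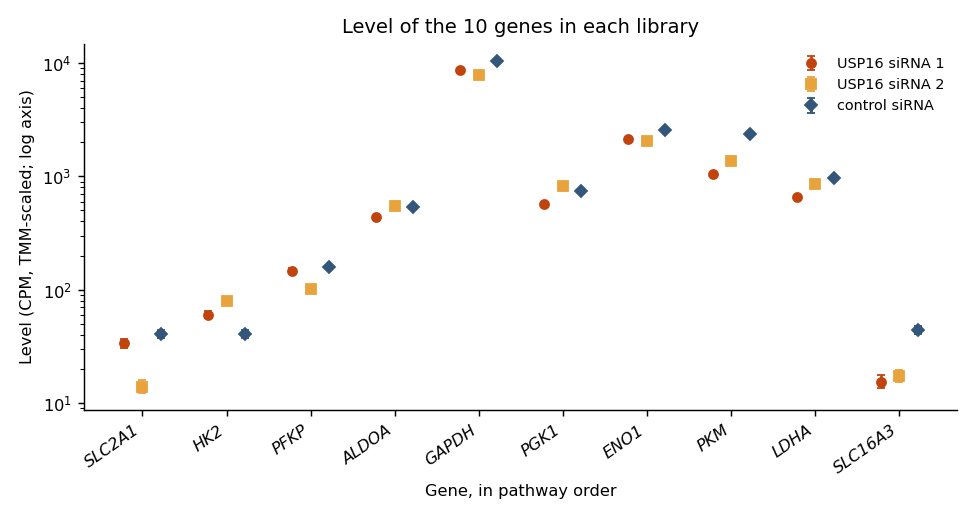
Level of each gene in TMM-scaled CPM on a log axis, in pathway order, for USP16 siRNA 1, USP16 siRNA 2 and the control siRNA library. Bars are exact Poisson 95% intervals and cover counting error only; they are often smaller than the points. SLC16A3 was at 15.5 and 17.4 CPM in the knockdown libraries and at 43.8 CPM in the control, while HK2 was at 60.3 and 79.4 CPM against 40.9 CPM.

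Together the 10 genes took 1.396% and 1.408% of all counts in the knockdown libraries (Wilson 95% intervals 1.390 to 1.402 and 1.403 to 1.414) and 1.702% in the control (1.695 to 1.708). On the scaled level the sum was 13728 and 13630 CPM after knockdown and 17880 CPM in the control, a log2 ratio of -0.38 and -0.39. GAPDH made up 62.7% and 57.0% of the summed counts in the knockdown libraries and 58.3% in the control, the largest part in all 3 libraries. Without GAPDH the sum was 5126 and 5859 CPM in the knockdown libraries and 7451 CPM in the control. The sum was lower in both knockdown libraries with and without it. These sums were not tested. In bulk RNA fewer transcripts per cell and fewer expressing cells cannot be told apart.

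SLC2A1 encodes GLUT1, the facilitative glucose transporter of most proliferating cells. SLC2A1 (ENSG00000117394) lies on chromosome 1 at 42925375 to 42959176 on the minus strand (hg38, GENCODE release 29, also for the positions that follow). It had 479 and 218 counts in the knockdown libraries and 541 in the control, or 33.8 and 14.0 CPM against 40.6 CPM. Its log2 changes of -0.26 and -1.53 averaged -0.90 ± 0.89 (SD, n = 2). Library 2 alone was far below the control, and the knockdown libraries differed by 1.26 on the log2 scale, the widest gap of the 10 genes. The median gap among genes with as many counts was 0.33.

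HK2 encodes hexokinase 2, which phosphorylates glucose and binds the outer mitochondrial membrane. HK2 (ENSG00000159399) lies on chromosome 2 at 74833981 to 74893359 on the plus strand. It had 856 and 1237 counts in the knockdown libraries and 545 in the control. These are 60.3 CPM (exact Poisson 95% interval 56.3 to 64.5) and 79.4 CPM (75.1 to 84.0), against 40.9 CPM (37.5 to 44.5). The groups did not overlap, and HK2 was 1.47 and 1.94 times its control level. The mean log2 change was 0.76 ± 0.28 (SD, n = 2; edgeR adjusted p = 0.999). A noncoding gene on the opposite strand, AC019069.1, overlaps HK2 with 74 and 16 counts in the knockdown libraries and 69 in the control. The sources used here do not state whether counting used strand.

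PFKP encodes the platelet isoform of phosphofructokinase, the committed step of the pathway. PFKP (ENSG00000067057) lies on chromosome 10 at 3066333 to 3137712 on the plus strand. It had 2095 and 1577 counts in the knockdown libraries and 2101 in the control, at 148 and 101 CPM against 158 CPM. Library 1 was close to the control (log2 change -0.09) and library 2 below it (-0.64). ALDOA encodes the aldolase that cleaves the doubly phosphorylated sugar. ALDOA (ENSG00000149925) lies on chromosome 16 at 30064164 to 30070457 on the plus strand. It had 6205 and 8531 counts in the knockdown libraries and 7201 in the control, at 437 and 548 CPM against 540 CPM. The control lay between the knockdown libraries for ALDOA.

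GAPDH encodes glyceraldehyde-3-phosphate dehydrogenase, the step that reduces NAD+ and the first of the payoff phase. GAPDH (ENSG00000111640) lies on chromosome 12 at 6533927 to 6538374 on the plus strand. It had 122080 and 121022 counts in the knockdown libraries and 139035 in the control, at 8602 and 7771 CPM against 10430 CPM. Both knockdown libraries were below the control, by 17.5% and 25.5%, and the mean log2 change was -0.35 ± 0.10 (SD, n = 2; edgeR adjusted p = 0.999).

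PGK1 encodes phosphoglycerate kinase, which makes ATP. PGK1 (ENSG00000102144) lies on chromosome X at 77910739 to 78129296 on the plus strand. It had 8022 and 12743 counts in the knockdown libraries and 9977 in the control, at 565 and 818 CPM against 748 CPM, so the control lay between them. ATP7A, which overlaps PGK1 on the same strand in the annotation, had 398 and 381 counts in the knockdown libraries and 269 in the control, and PGAM4, on the opposite strand within it, had 140 and 95 against 93. ENO1 encodes the main enolase, which makes phosphoenolpyruvate. ENO1 (ENSG00000074800) lies on chromosome 1 at 8861000 to 8879250 on the minus strand. It had 30488 and 31908 counts in the knockdown libraries and 34165 in the control, at 2148 and 2049 CPM against 2563 CPM. Its log2 changes of -0.25 and -0.32 were the closest pair of the 10, with a gap of 0.07.

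PKM encodes the muscle-type pyruvate kinase, which makes pyruvate and ATP. Its M1 and M2 splice forms cannot be separated in counts per gene. PKM (ENSG00000067225) lies on chromosome 15 at 72199029 to 72231822 on the minus strand. It had 14984 and 21307 counts in the knockdown libraries and 31312 in the control. The levels were 1056 CPM (1039 to 1073) and 1368 CPM (1350 to 1387) after knockdown, against 2349 CPM (2323 to 2375) in the control. Both knockdown libraries were below the control, by 55.0% and 41.7%. The mean log2 change was -0.97 ± 0.26 (SD, n = 2; edgeR unadjusted p = 0.0142, adjusted p = 0.985).

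LDHA encodes the lactate dehydrogenase subunit that favours lactate formation. LDHA (ENSG00000134333) lies on chromosome 11 at 18394388 to 18408425 on the plus strand. It had 9395 and 13456 counts in the knockdown libraries and 12898 in the control, at 662 and 864 CPM against 968 CPM. Library 2 had more raw counts than the control and a lower level once scaled. The log2 changes were -0.55 and -0.16.

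SLC16A3 encodes MCT4, the low-affinity monocarboxylate transporter that exports lactate from glycolytic cells. SLC16A3 (ENSG00000141526) lies on chromosome 17 at 82228397 to 82261129 on the plus strand. It had 220 and 271 counts in the knockdown libraries and 584 in the control. These are 15.5 CPM (13.5 to 17.7) and 17.4 CPM (15.4 to 19.6) after knockdown, against 43.8 CPM (40.3 to 47.5) in the control. The knockdown libraries were alike and 64.4% and 60.1% below the control. The mean log2 change of -1.41 ± 0.12 (SD, n = 2) was the largest of the 10 in size, with an unadjusted p of 0.0062 and an adjusted p of 0.823 (edgeR). SLC16A3 was the 1 member that was lower by 2-fold or more after both knockdowns, as were 1.68% of all genes, and 0 of 10 were higher by that much in both, against 3.75% of all genes. CSNK1D overlaps it on the opposite strand and is more abundant, with 2248 and 2961 counts in the knockdown libraries and 2835 in the control, so SLC16A3 reads cannot be separated from it with certainty.

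**Figure D2:**
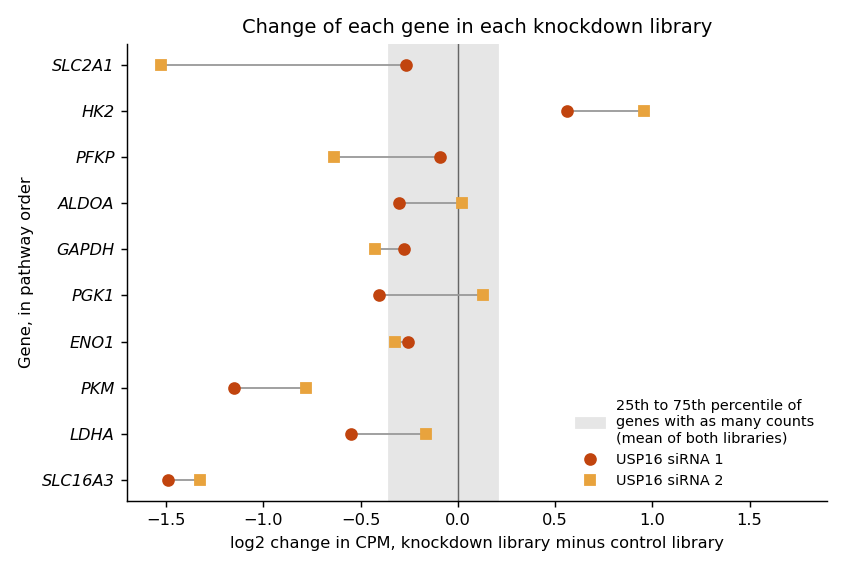
Log2 change in CPM of each gene against the control library, in USP16 siRNA 1 (circles) and USP16 siRNA 2 (squares), joined by a line per gene. The grey band spans the 25th to 75th percentile (-0.35 to 0.21) of the mean change over 7445 genes with a mean count at least that of SLC16A3, the lowest member. PKM and SLC16A3 lie left of the band and HK2 right of it in both knockdown libraries.

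Promoter windows are shown for HK2, the member higher in both knockdown libraries, for PKM and SLC16A3, with the lowest unadjusted p-values, and for GAPDH, the most abundant. Each runs 5′ to 3′ along the gene from 250 bases before to 50 bases after a RefSeq start on GRCh38.p14. For HK2 and SLC16A3 that start is the first of several annotated starts. The only windows of GAPDH and PKM lie inside the genes as annotated in GENCODE, which begin at 6533927 and, on the minus strand, at 72231822. The sequence at those GENCODE starts is not shown. Capitals mark ACGTG, the core of the hypoxia response element that HIF binds, CACGTG, the E-box that MYC binds and which holds ACGTG on both strands, and GGGCGG, the GC box that SP1 binds. All were searched on both strands. The windows are chr2:74833877-74834176 (plus strand) for HK2, chr15:72231141-72231440 (minus strand) for PKM, chr17:82228185-82228484 (plus strand) for SLC16A3 and chr12:6535014-6535313 (plus strand) for GAPDH.
HK2: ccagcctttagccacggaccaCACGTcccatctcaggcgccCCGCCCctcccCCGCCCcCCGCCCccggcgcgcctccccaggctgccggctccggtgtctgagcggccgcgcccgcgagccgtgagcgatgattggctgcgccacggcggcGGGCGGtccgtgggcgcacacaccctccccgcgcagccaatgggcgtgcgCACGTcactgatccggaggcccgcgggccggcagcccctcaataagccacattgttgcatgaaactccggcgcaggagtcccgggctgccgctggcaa
PKM: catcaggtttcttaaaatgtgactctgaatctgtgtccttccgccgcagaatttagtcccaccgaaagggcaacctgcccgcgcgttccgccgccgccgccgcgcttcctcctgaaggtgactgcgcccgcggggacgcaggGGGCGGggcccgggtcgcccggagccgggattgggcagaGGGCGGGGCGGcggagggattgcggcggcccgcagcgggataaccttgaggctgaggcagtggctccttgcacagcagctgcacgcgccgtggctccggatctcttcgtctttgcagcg
SLC16A3: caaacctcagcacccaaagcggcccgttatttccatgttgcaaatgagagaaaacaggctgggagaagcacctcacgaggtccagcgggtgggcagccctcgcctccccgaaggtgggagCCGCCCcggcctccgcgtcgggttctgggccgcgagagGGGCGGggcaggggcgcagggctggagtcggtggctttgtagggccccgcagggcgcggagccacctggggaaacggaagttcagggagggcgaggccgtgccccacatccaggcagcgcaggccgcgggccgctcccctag
GAPDH: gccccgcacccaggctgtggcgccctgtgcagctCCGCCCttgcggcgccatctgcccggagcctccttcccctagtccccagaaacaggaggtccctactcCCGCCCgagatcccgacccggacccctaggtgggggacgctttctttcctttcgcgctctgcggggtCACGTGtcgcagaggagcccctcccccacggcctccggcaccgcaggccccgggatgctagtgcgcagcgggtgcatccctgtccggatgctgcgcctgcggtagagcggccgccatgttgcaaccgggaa
The HK2 window holds 2 ACGTG matches and 4 GC boxes, and the GAPDH window 1 E-box and 2 GC boxes. The PKM window has no ACGTG and 3 GC boxes, of which 2 overlap. The SLC16A3 window shown has no ACGTG and 2 GC boxes, but the next of its 5 windows (chr17:82228792-82229091) has 2 ACGTG matches and 3 GC boxes. The other HK2 window (chr2:74834920-74835219) has 4 ACGTG matches, 2 E-boxes and 2 GC boxes. Over all windows of the 10 genes, 7 genes had ACGTG in at least 1 window (all but ENO1, SLC2A1 and PKM), 4 had CACGTG and all 10 had GGGCGG. A gene with more windows has more room for a match. SLC16A3 had 5 windows, while ENO1, SLC2A1 and PKM had 1 each, as did GAPDH and PGK1. No share per gene was computed over all genes. By window, 10 of the members' 21 windows held ACGTG, 4 held CACGTG and 14 held GGGCGG. Windows 1 and 2 of ALDOA overlap, so a match can be counted in both. Of all 35116 RefSeq windows of the same length, 21.4% held ACGTG, 7.26% held CACGTG and 45.0% held GGGCGG. A match is a run of letters, not a site shown to be bound.

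Levels were compared between genes per kilobase of annotated exon. GAPDH was the highest member in every library, at 2886 and 2607 CPM per kilobase in the knockdown libraries and 3499 in the control. It ranked 13 and 14 in the knockdown libraries and 12 in the control among 17190 genes with a length. ENO1 (407 and 388 CPM per kilobase after knockdown, 486 in the control) and PKM (123 and 160 after knockdown, 274 in the control) came next in all 3 libraries. LDHA, ALDOA and PGK1 followed, between 103 and 156 CPM per kilobase, and changed places between libraries. With the longest annotated transcript as length, they kept the order LDHA, ALDOA, PGK1 in every library. PFKP was seventh throughout. SLC16A3 was the lowest, at 1.72 and 1.94 CPM per kilobase in the knockdown libraries and 4.87 in the control. SLC2A1 and HK2 lay just above it, and their order differed between groups: HK2 was at 9.95 and 13.1 CPM per kilobase after knockdown and 6.74 in the control, while SLC2A1 was at 7.14 and 2.96 after knockdown and 8.59 in the control. PKM ranked 269 and 178 among all genes in the knockdown libraries and 122 in the control.

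Most members have isozymes or related transporters, and the share of each within its group was computed per kilobase of exon. HK2 made up 34.1% and 45.2% of the hexokinase group in the knockdown libraries and 25.05% in the control. HK1, the housekeeping hexokinase, was the larger part in all 3 libraries, with 1676 and 1515 counts after knockdown and 1669 in the control. PFKP was 49.7% and 37.6% of the phosphofructokinases in the knockdown libraries and 57.3% in the control. Its relatives stood the other way: PFKL, the liver isoform, had 1261 and 870 counts in the knockdown libraries and 598 in the control, and PFKM, the muscle isoform, had 2170 and 3239 counts after knockdown and 1882 in the control. SENP1, which overlaps PFKM on the opposite strand, had 1019 and 1041 counts after knockdown and 1365 in the control.

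LDHA was the smaller lactate dehydrogenase, at 19.3% and 24.7% of its group in the knockdown libraries and 25.7% in the control. LDHB, the subunit that favours pyruvate formation, was nearly level, with 18873 and 19653 counts in the knockdown libraries and 17878 in the control (log2 changes -0.01 and -0.09). ENO1 was 96.2% and 96.6% of the enolases after knockdown and 93.3% in the control. ENO3, the muscle enolase, had 600 and 606 counts in the knockdown libraries and 1677 in the control (mean log2 change -1.63 ± 0.08, SD, n = 2; edgeR adjusted p = 0.562). PFN1 overlaps ENO3 on the opposite strand, with 8986 and 10955 counts after knockdown and 13486 in the control. ENO2, the neuronal enolase, had 384 and 308 counts in the knockdown libraries and 309 in the control. ALDOA was 97.15% or more of the aldolases in all 3 libraries, and its brain isozyme ALDOC had 61 and 187 counts after knockdown and 111 in the control.

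SLC2A1 was not the main glucose transporter transcript of these cells. Its group here was SLC2A1, SLC2A2, SLC2A3, SLC2A4 and SLC2A14, of which it made up 17.3% and 3.56% in the knockdown libraries and 14.8% in the control. SLC2A6 and SLC2A8 were outside this group, at 6.10 and 6.15 CPM per kilobase in the control against 8.59 for SLC2A1. SLC2A3, the high-affinity transporter GLUT3, had 2957 and 7663 counts in the knockdown libraries and 3992 in the control, on both sides of it, and shares sequence with its close copy SLC2A14. SLC16A3 was 10.1% and 5.06% of the monocarboxylate transporters after knockdown and 11.8% in the control. SLC16A1, the widely expressed MCT1, had 1154 and 2995 counts in the knockdown libraries and 2572 in the control. The antisense gene SLC16A1-AS1 had 109 and 238 counts after knockdown and 88 in the control. Library 1 was low in SLC16A1 and library 2 matched the control (log2 changes -1.25 and -0.00).

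**Figure D3:**
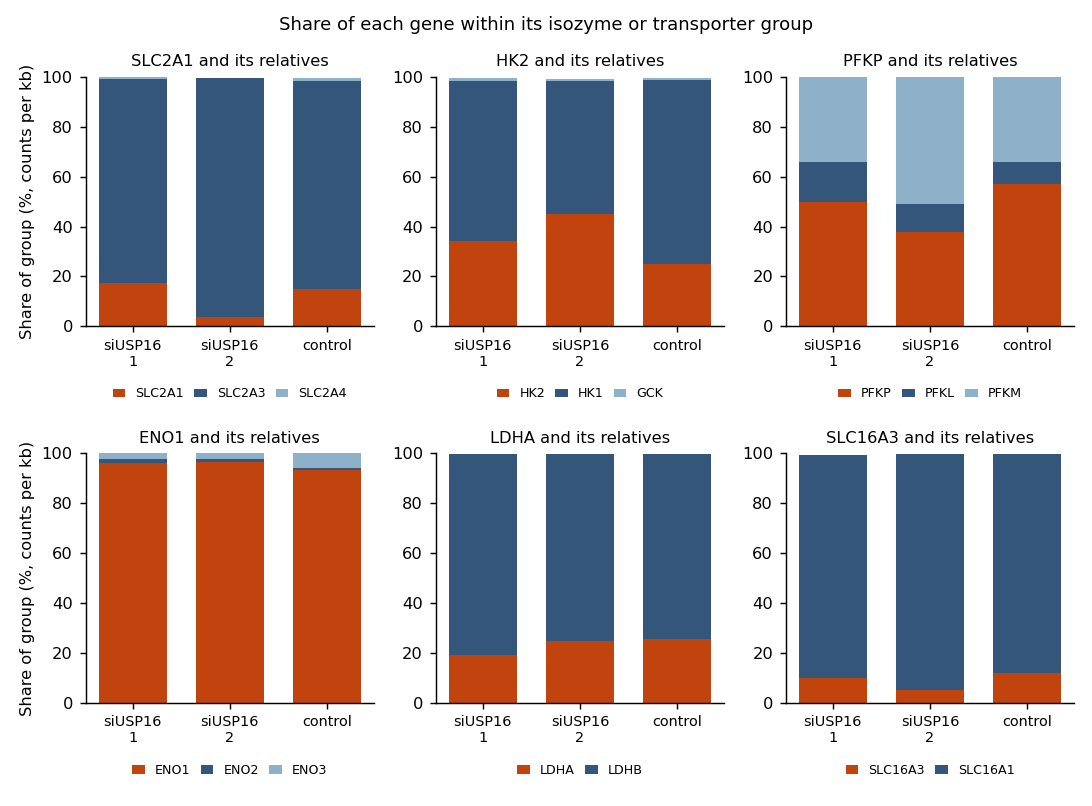
Share in percent of each gene within its isozyme or transporter group, from counts per kilobase of exon, in USP16 siRNA 1, USP16 siRNA 2 and the control library; genes under 1% in every library are left out. The member named above each panel is at the bottom of each bar in red. The HK2 share is above the control in both knockdown libraries (34.1% and 45.2% against 25.05%), and the PFKP share smaller (49.7% and 37.6% against 57.3%).

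The rest of the pathway was read from 6 further lists, in which no gene passed an adjusted p of 0.05 (edgeR or DESeq2). At an unadjusted p under 0.05, edgeR had 1 of 15 other glycolytic enzymes (ENO3) and 0 in 4 of the other lists. It had 1 of 13 genes on the pentose phosphate and hexosamine list (GFPT2). Of 23 other glycolytic enzymes and isozymes, 15 had enough counts to test, and of these 6 were below and 6 above the control after both knockdowns, with median log2 changes of 0.02 and -0.09. With raw library totals the counts were 4 below and 7 above, and with the reference genes 3 below and 7 above. GPI, which isomerises glucose 6-phosphate, had 2535 and 2988 counts in the knockdown libraries and 3754 in the control (log2 changes -0.66 and -0.55). TPI1 and PGAM1, the remaining core steps, were named after their values were seen. TPI1 was at 1488 and 987 CPM after knockdown and 1458 CPM in the control, and PGAM1 at 283 and 210 CPM against 303 CPM.

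Among 12 tested glucose and monocarboxylate transporters and their chaperones, 7 lay below the control and 1 above it in both knockdown libraries, with median log2 changes of -0.59 and -0.37. With raw library totals and with the reference genes these counts were 5 and 1, and the medians stayed below 0. BSG encodes basigin, the chaperone that brings MCT1 and MCT4 to the cell surface. It had 9085 and 2987 counts in the knockdown libraries and 9891 in the control, so that library 2 alone was far lower. SLC2A8, an intracellular hexose transporter, had 196 and 180 counts after knockdown and 322 in the control. SLC2A10 had 132 and 53 counts after knockdown and 115 in the control.

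Of 18 tested regulators and side enzymes, 6 lay below and 7 above the control in both knockdown libraries, with median log2 changes of 0.07 and -0.09, against 4 below and 7 above with raw library totals and 3 and 7 with the reference genes. The phosphoglucomutase PGM1, which links glycogen to glycolysis, had 1344 and 891 counts in the knockdown libraries and 1633 in the control, and ITGB3BP overlaps it on the opposite strand. PGM2 had 714 and 537 after knockdown and 1022 in the control, and PGM2L1 had 423 and 73 against 218. G6PC3, a glucose 6-phosphatase, had 1395 and 910 counts after knockdown and 776 in the control. HIF1A and MYC were named after their values were seen. HIF1A had 2122 and 3156 counts in the knockdown libraries and 1805 in the control (log2 changes 0.14 and 0.58). MYC had 50 and 201 counts in the knockdown libraries and 40 in the control (log2 changes 0.22 and 2.05).

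For pyruvate entry into mitochondria, 5 of 14 genes were below and 5 above the control in both libraries, with median log2 changes of -0.04 and 0.06, against 3 below and 7 above with raw library totals and with the reference genes. PDK4, a kinase that switches off pyruvate dehydrogenase, had 331 and 185 counts in the knockdown libraries and 99 in the control (log2 changes 1.63 and 0.67; edgeR adjusted p = 0.999). PDK2, another such kinase, had 431 and 442 counts after knockdown and 593 in the control, and PDP2, a phosphatase that switches it on, had 236 and 703 against 594. PC, pyruvate carboxylase, had 431 and 458 counts after knockdown and 493 in the control.

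In the pentose phosphate and hexosamine branches, 7 of 13 tested genes were below the control in both knockdown libraries and 3 above it, with median log2 changes of -0.24 and -0.10. With raw library totals these counts were 4 and 3, and with the reference genes 3 and 3. PHGDH, of serine synthesis, lies outside these branches but was on this list. It was 1 of the 3 above the control with TMM scaling (log2 changes 0.37 and 0.12). GFPT2, an entry enzyme of the hexosamine branch, had 368 and 338 counts in the knockdown libraries and 610 in the control (unadjusted p = 0.0442, adjusted p = 0.999, edgeR). GNPNAT1, further along that branch, had 1696 and 969 counts after knockdown and 1674 in the control. PGLS, of the oxidative pentose phosphate steps, had 383 and 393 counts after knockdown and 608 in the control, whereas RPIA, of the nonoxidative steps, had 613 and 1371 against 528.

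**Figure D4:**
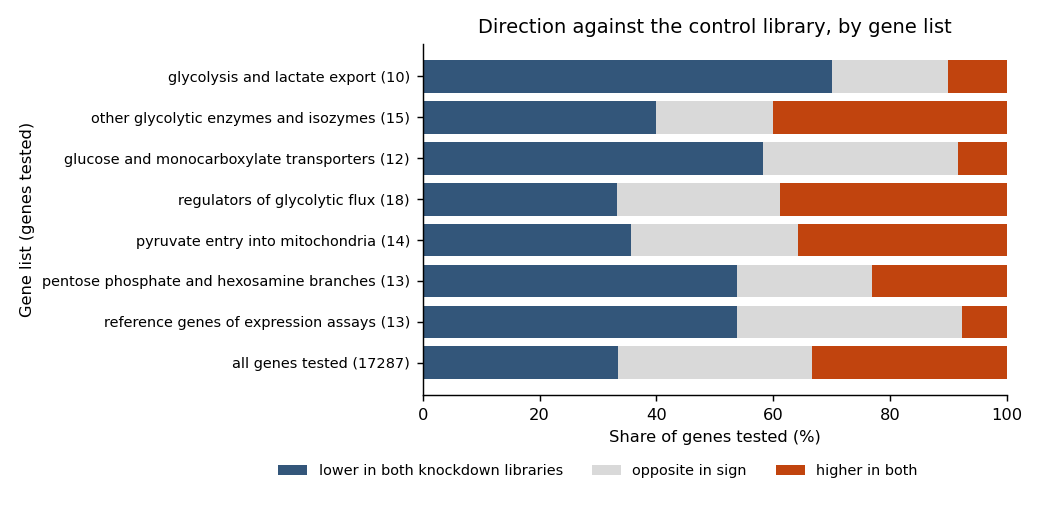
Share in percent of tested genes that were lower in both knockdown libraries, opposite in sign or higher in both, against the control library, for the 10 glycolysis and lactate export genes, 6 related lists and all 17287 genes tested; the number tested is in brackets. With TMM scaling the members had 7 of 10 lower in both, where all genes had 33.5%, and the other glycolytic enzymes had 6 lower and 6 higher of 15. The members had 6 lower with raw library totals and 5 with the reference genes. The other enzymes had 4 lower and 7 higher, and 3 and 7, under those scalings. The share over all genes was computed with TMM scaling only.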

How the data were processed

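Whole-number counts of reads per gene were used as deposited, 1 file per library, with no normalization visible in the values. Per the submitters' processing notes, HISAT2 2.0.4, StringTie 1.3.0 and hg38 were involved, with no role given. How reads were counted, by which annotation and with or without strand, is not given in the sources used here. GENCODE release 29 gave positions and exon lengths for 50111 identifiers (98.5%). Promoter sequences are from RefSeq (GRCh38.p14), in which all 10 genes matched.

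Genes were filtered with filterByExpr, counts scaled by TMM, and 2 knockdown libraries compared with 1 control over all genes in edgeR 4.0.16 (R 4.3.3; glmQLFit and glmQLFTest), with Benjamini-Hochberg adjustment. Only 1 residual degree of freedom remained, and the spread of the single control is taken to equal that of the knockdown libraries. Counts of this design were simulated (17035 genes, a log2 change of 2 in 200 genes) with a dispersion set at 0.02, not estimated from these data. The median fitted log2 change was 1.99. That checks only that the fit returns a change put in, and cannot show how well the test detects changes in these data. Log2 changes per library are on log2 CPM with a prior count of 2, and the SD of their mean leaves out the variation of the control. Intervals cover counting error only.

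The members, lists and tests were chosen with earlier results of these data known. Besides USP16, the 10 members and their isozymes with a mean of at least 100 counts, the 4 genes of each list with the largest mean change among those with at least 100 counts were named. Pseudogenes and overlapping genes of the 10 members with at least 20 counts were named as well. For other genes such overlaps were named only in part. PC, PDK2, TPI1 and BSG, among others, also overlap such a gene. Alternatives were other filters and scalings, a prior count of 10, DESeq2 1.42.0, pseudogene counts added, longest transcripts as length and each knockdown library left out.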

Additional observations from a re-analysis of the deposited data

How the results depend on the processing

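No paired analysis was possible because the control has 1 library without a number in its label. The count of members past the threshold was 0 under every alternative with a test, with the lowest adjusted p, 0.363, for PKM with edgeR and no filter on low counts. HK2 stayed higher and SLC2A1, PFKP, GAPDH, ENO1, PKM, LDHA and SLC16A3 lower in mean log2 change under every alternative run. ALDOA and PGK1 went to 0.02 and 0.03 when counts were scaled by 13 reference genes, an alternative added after seeing the data, and to 0.03 and 0.13 without knockdown library 1. The median change over the members was -0.35, and -0.25 with raw library totals and -0.19 with the reference genes. These scalings moved the median of all genes by 0.10 and 0.16, and the members' median lay 0.33 below that of all genes with each of them and 0.34 below it with TMM. Genes with a mean count at least that of the lowest member had a median of -0.07 with TMM, against -0.02 for all genes. The log2 ratio of the summed level was -0.39, against -0.39 with no filter, -0.35 with a minimum mean of 100 counts, -0.28 with raw totals and -0.22 with the reference genes. With raw totals 6 members were lower in both knockdown libraries, and with the reference genes 5. The share of all genes lower in both was not computed under these scalings. Leaving out 1 knockdown library gave 7 to 9 members lower and 1 to 3 higher, medians of -0.37 to -0.29 and summed ratios of -0.39 to -0.38. With the longest transcript as length, the ENO1 share of the enolases differed from the control by 4.22 percentage points in place of 3.06, and HK2 took 25.7% and 35.6% of the hexokinases after knockdown and 18.3% in the control. With that length HK2 and not SLC16A3 was the lowest member in the control, and LDHA, ALDOA and PGK1 no longer changed places between libraries. With 1 control library, the depth gives tight counting intervals and no estimate of the control's own spread.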

Other observations

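GAPDH and PGK1 are widely used as reference genes in quantitative PCR and blots, so their stability was set beside 13 other genes used that way. Ordered by the larger of the log2 changes in the knockdown libraries, TBP, named after its values were seen, had the smallest (-0.16 and -0.17), PGK1 was number 8 of the 15 (-0.40 and 0.13) and GAPDH number 9 (-0.28 and -0.42). PPIA, cyclophilin A, had the largest (-0.30 and -1.17), ahead of GUSB (-0.10 and -1.02) and YWHAZ (-0.87 and -0.09). B2M was at 0.08 and 0.48. Of the 13, 7 were lower in both knockdown libraries and 1 was higher in both with TMM scaling, 5 and 2 with raw library totals, and none passed an adjusted p of 0.05 (edgeR and DESeq2, with 0 at an unadjusted 0.05).

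The choice of reference gene altered the remaining USP16 level. Relative to GAPDH, USP16 was at 19.6% and 44.5% of its control level in the knockdown libraries, relative to PGK1 at 21.5% and 30.4%, and by scaled CPM at 16.2% and 33.2%. Over all 15 genes it ranged between 14.7% and 29.5% in library 1 and between 21.5% and 74.6% in library 2. USP16 was below its control level by each of the 15.

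Processed pseudogenes of the members took few reads. The 62 GAPDH pseudogenes together had 1623 and 1674 counts in the knockdown libraries and 1755 in the control, at most 1.38% of the GAPDH count in any library. The largest, GAPDHP1, had 1453 and 1469 counts after knockdown and 1534 in the control, and GAPDHP65 and GAPDHP72 had 107 or fewer in each library. LDHAP4 had 144 and 231 counts after knockdown and 267 in the control, ENO1P4 had 91 and 214 against 127, and ENO1P1 had 35 and 52 against 86. Adding these counts to their parent genes left the log2 change of each member within 0.01 of its value.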
